A study of Rattus norvegicus with 10 samples.

Results

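Gatm encodes glycine amidinotransferase, the mitochondrial enzyme that opens creatine synthesis. It was taken from the deposited count table by position, as the minus-strand gene on chromosome 3 from 114711562 to 114728410 of rat assembly Rnor_6.0 (ENSRNOG00000000168), and is 1 of the 32623 genes listed. The gene was picked because its transcript differed between the groups of this experiment. Its difference is therefore described and not tested. Whole kidneys came from rats of the outbred Sprague-Dawley strain, all male. The control group had 5 rats that drank freely and the dehydrated group 5 rats kept from water for 72 hours (3 days). The labels name no other treatment and give no age. Each kidney sample gave 1 library of polyadenylated RNA, and the libraries differ in replicate number within their group.

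The enzyme moves the amidino group of arginine onto glycine, which yields guanidinoacetate and ornithine. Guanidinoacetate is then methylated to creatine by guanidinoacetate methyltransferase, encoded by Gamt, mainly in the liver. Creatine is released to the blood and taken up by muscle and brain, where creatine kinases use it to buffer ATP. The proximal tubule of the kidney is a main site of the first step in the rat. Renal expression of the enzyme is known to be held down by creatine itself.

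Libraries held 29454213 to 35898689 fragments assigned to genes, and 18083 to 18680 genes had at least 1 fragment. For replicate 6 of either group the name of the library has the opposite group's letter, while titles and treatment labels agree. Titles were followed here, and values are also given without these libraries. None of the 1494 annotated genes on chromosome X had a fragment in any library, nor had any of the 938 on chromosome 20, the 48 on chromosome Y or the 37 of the mitochondrial genome. Ranks and shares of fragments below are therefore among the remaining genes. The creatine transporter Slc6a8 is X-linked and was therefore not measured. The identifiers are not paired with gene symbols in the tables used here. Gamt, the creatine kinases, the genes of arginine and glycine supply and the markers of tubule segments and other cell types were for this reason not analysed here, and the tissue label was not checked against markers.

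The annotated gene spans 16849 bp and has 9 exon ranges with a summed length of 2528 bp, which is 15.0% of the span. Read from its 5′ end, the first range (114728031 to 114728410) is 380 bp long. The last (114711562 to 114712619) is the longest at 1058 bp. Between them lie 7 ranges of 64 to 219 bp, and the longest intron, 5680 bp, follows the second range. No other annotated gene overlapped the span on either strand. The count of Gatm was thus not shared with an overlapping gene.

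**Figure D1:**
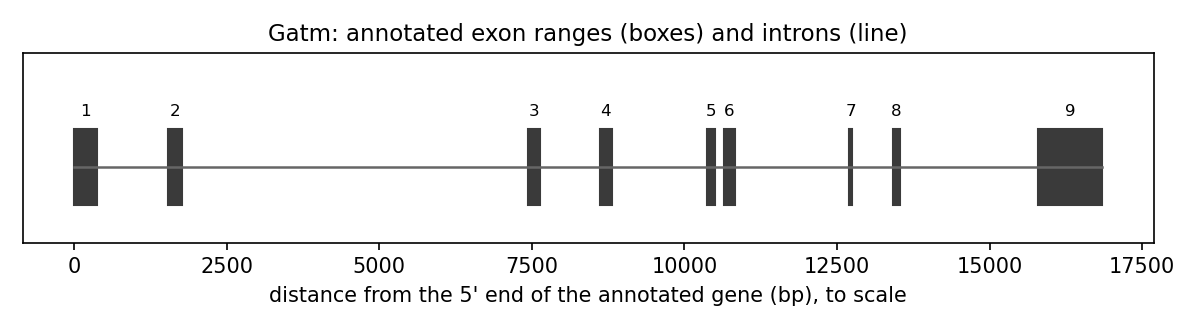
The annotated exon ranges of Gatm are boxes on a line for the introns, drawn to scale by distance in bp from the 5′ end. The 9 ranges are numbered from the 5′ end, and the last, of 1058 bp, is the longest.

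The sequence before the gene's annotated start is shown as background on the gene. Its part in the level of the transcript was not tested. RefSeq's promoter table for assembly GRCr8 gives the 250 bases before the start of Gatm at chr3:130129094-130129343 on the minus strand, a different assembly from that of the counts. Capitals mark CCAAT boxes, the motif bound by the factor NF-Y.
Gatm: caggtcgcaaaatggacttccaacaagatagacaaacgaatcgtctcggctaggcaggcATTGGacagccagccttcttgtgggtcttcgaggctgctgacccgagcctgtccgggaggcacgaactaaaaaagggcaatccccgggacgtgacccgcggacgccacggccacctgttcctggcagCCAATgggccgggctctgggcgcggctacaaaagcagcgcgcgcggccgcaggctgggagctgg
The window held 2 matches to CCAAT, one on the gene's strand at 64 to 60 bases before the start and one on the other strand at 191 to 187 bases before it. Of 33469 promoter windows of this length, 34.0% held the motif. Exact matches numbered 0 on either strand for the TATA box (TATAAA), the GC box (GGGCGG), an E-box (CACGTG), the cAMP response element (TGACGTCA), the core of the tonicity element (TGGAAA), the core site of many nuclear receptors (AGGTCA) and that of the glucocorticoid receptor (AGAACA). The share of windows with these motifs ran from 1.59% for the cAMP response element to 30.5% for the GC box. The Gatm window was rich in G and C, at 63.6% against a median of 51.2%, and held 22 CG dinucleotides against a median of 5. No measurement of binding or methylation was part of this experiment, and a match of letters is a description of the sequence.

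Gatm transcript was abundant in control kidneys and lower in each dehydrated kidney. The deposited counts were 115047, 132263, 141301, 97015 and 87315 fragments in control replicates 2, 3, 4, 5 and 6. In dehydrated replicates 1, 2, 4, 5 and 6 they were 34810, 27644, 25351, 28680 and 30115. The lowest control count exceeded the highest dehydrated count, so the groups did not overlap. Over all tested genes, groups without overlap made up 7.87%, taken on the depth-scaled levels given below and not on these counts. That share is printed as background only, since the gene was chosen on this comparison.

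Scaling to depth also left the groups apart. In CPM, the counts divided by a library's depth over tested genes and scaled by TMM, a method that sets libraries level on the bulk of their genes, control replicates 2 to 6 had 3466, 4297, 4024, 2787 and 2994 CPM. Dehydrated replicates 1, 2, 4, 5 and 6 had 989, 837, 853, 782 and 1004 CPM. The means were 3514 ± 647 CPM in control and 893 ± 98.4 CPM after water restriction (SD, n = 5). The lowest control kidney, replicate 5, had 2.78 times the CPM of the highest dehydrated kidney, replicate 6. The log2 fold change of dehydrated over control was -1.98 (SE 0.12), a 3.93-fold lower level. The authors' deposited table gives a log2 fold change of -1.98 with an SE of 0.12. Without both libraries numbered 6 the log2 fold change was -2.08. With these libraries exchanged between the groups, as the letters in their names have it, the log2 fold change was -1.27 and edgeR called 0 genes. Which assignment is right was not tested. In whole kidney, fewer cells that carry the transcript and less transcript per cell cannot be told apart.

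**Figure D2:**
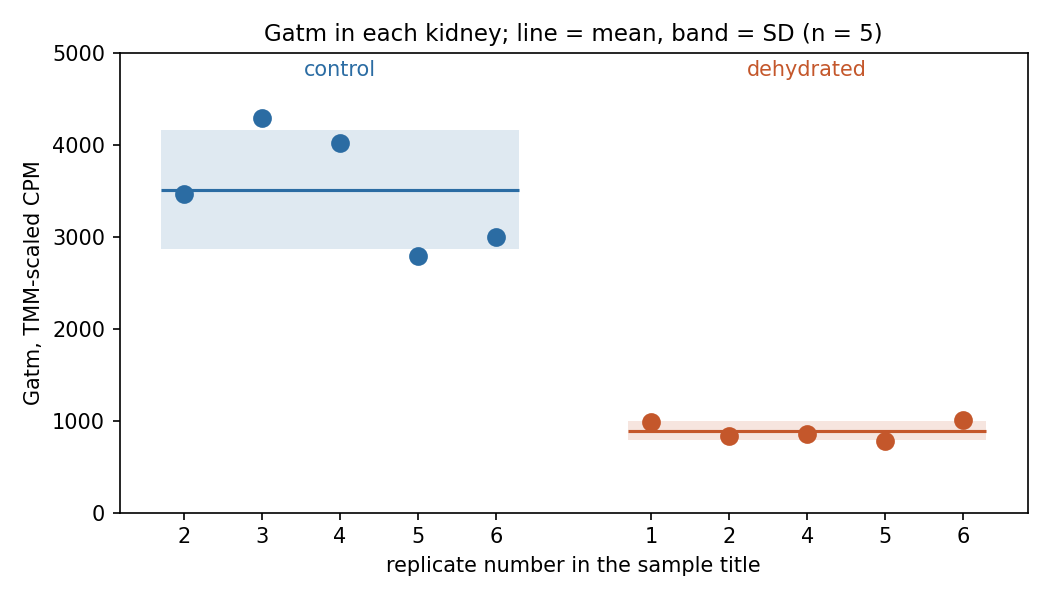
Each point is the Gatm level of 1 kidney in TMM-scaled CPM, with replicate numbers from the titles on the horizontal axis, group means as lines and the SD as bands (n = 5 per group). Control kidneys lay between 2787 and 4297 CPM and dehydrated kidneys between 782 and 1004 CPM.

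Per unit of length, the control kidney held Gatm among its most abundant tested transcripts. The level was 1390 ± 256 RPKM (CPM per kb of exonic length) in control and 353 ± 38.9 RPKM in dehydrated kidneys (SD, n = 5). By mean RPKM the gene ranked 29 in control and 264 in dehydrated kidneys, among 15047 tested genes. Within single libraries its rank was 22 to 40 in control and 192 to 322 in dehydrated kidneys, again without overlap. Gatm took 0.350% ± 0.062 of all assigned fragments, which hold none of mitochondrial genes, in control and 0.0894% ± 0.0094 after water restriction (SD, n = 5).

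The difference was the widest among the genes with the most fragments, which depend on length as well as abundance. In the class of 89 tested genes averaging 1000 CPM or more over both groups, 0 had a larger absolute log2 fold change. Gatm is in this class through its control level, with a mean of 893 CPM in dehydrated kidneys. The others in this class ranged from -0.65 to 1.59 on the log2 scale. Across all levels, 12 tested genes had a lower log2 fold change than Gatm. The highest control level among these was 630 CPM, and their median was 2.38 CPM. The 31 genes with a control level within 2-fold of Gatm had a median log2 fold change of -0.03 and a range of -0.40 to 1.59. The mean Gatm level fell by 2621 CPM, the second largest loss of any tested gene, or 5.10% of the summed losses. These values come from the comparison on which the gene was chosen, and nothing is read from them about chance.

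**Figure D3:**
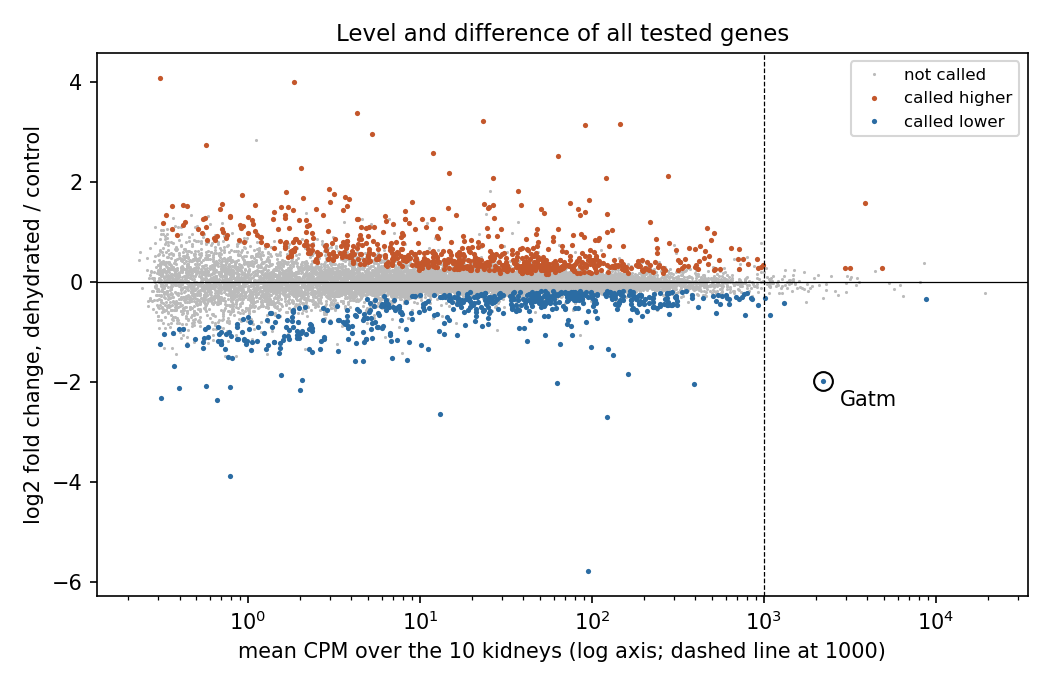
Each point is 1 of 15047 tested genes, by mean CPM over 10 kidneys on a log axis and by log2 fold change of dehydrated over control, with genes past the threshold (edgeR adjusted p below 0.05) in colour. Gatm, circled at -1.98, is the lowest point to the right of the dashed line at 1000 CPM.

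The kidneys of a group also differed from each other in Gatm. In log2 CPM the SD within the group was 0.27 in control and 0.16 in dehydrated kidneys (n = 5). Of the same 89 genes (Gatm included), 85 had a smaller SD in control and 70 a smaller SD in dehydrated kidneys, and the medians of the class were 0.12 and 0.11. Control replicates 5 and 6 were the lower pair and replicates 3 and 4 the higher pair. The highest control level was 1.54 times the lowest, and the highest dehydrated level was 1.28 times the lowest. These SDs do not use the difference between the groups, but membership of the class does. The class was set on the mean over both groups, and Gatm averaged 893 CPM in dehydrated kidneys. It is thus in the class through its control level.

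Genes around Gatm on chromosome 3 were examined next, since the rule used none of them. Of 20 annotated genes within 500 kb of its ends, 13 had any fragment and 9 were tested. None of the 9 passed edgeR's quasi-likelihood test (Benjamini-Hochberg adjusted p below 0.05), against 8.47% of all tested genes (4.70% higher and 3.77% lower). Their log2 fold changes ran from -0.19 to 0.32 with a median of 0.04. Control and dehydrated kidneys overlapped for each, while groups without overlap made up 7.87% of all tested genes. For only 9 genes, a count of 0 is near both shares. At an unadjusted p below 0.05 in edgeR there were 3 of the 9. No share of all tested genes was taken at this level, so nothing is read from this count. By other tools limma voom called 0 of the 9 and DESeq2 called 1. Over all genes limma voom called 1240 and DESeq2 1667, against 1275 in edgeR.

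Beyond the 5′ end of Gatm, the nearest gene with counts lay 19.0 kb away on the opposite strand (114747410 to 114760409). Its level was 5.19 ± 0.57 CPM in control and 4.56 ± 0.50 CPM in dehydrated kidneys (SD, n = 5). On the log2 scale this was -0.19 (SE 0.11; adjusted p = 0.374 in edgeR). On the other side, the nearest was 23.0 kb away on the same strand (114687672 to 114688536), at 26.0 ± 1.18 CPM in control and 24.0 ± 2.31 CPM in dehydrated kidneys (SD, n = 5). In log2 terms the difference was -0.12 (SE 0.07; adjusted p = 0.369 in edgeR). The tested neighbour with the most fragments (114805922 to 114828154, minus strand, 77.5 kb away) had 77.3 ± 7.87 and 79.6 ± 2.36 CPM in control and dehydrated kidneys (SD, n = 5; log2 fold change 0.04, SE 0.07; adjusted p = 0.787 in edgeR).

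Of the 9 tested neighbours, the one with the smallest adjusted p lay farthest off, 404 kb beyond the 3′ end on the minus strand (114287718 to 114307250). Control replicates 2 to 6 had 7.95, 8.67, 7.12, 10.1 and 8.16 CPM of it, and dehydrated replicates 1, 2, 4, 5 and 6 had 9.43, 10.4, 10.5, 10.2 and 11.5 CPM. The groups overlapped through control replicate 5. The log2 fold change was 0.31 (SE 0.10; adjusted p = 0.0664 in edgeR). DESeq2 called it higher (adjusted p = 0.0319), as did edgeR without control replicate 5 (adjusted p = 0.0173). Without that library edgeR also called a gene 44.2 kb beyond the 5′ end (114772603 to 114776155, plus strand; log2 fold change 0.50, adjusted p = 0.0429). Both differences run opposite to that of Gatm. With all libraries, the neighbour with the next smallest adjusted p was lower, as Gatm was. It lay 141 kb beyond the 5′ end (114869459 to 114881590, plus strand; log2 fold change -0.15, SE 0.05; adjusted p = 0.0991 in edgeR).

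In edgeR with all libraries, the nearest called genes of chromosome 3 were megabases away. By DESeq2, or in edgeR without control replicate 5, called genes lay within 500 kb, as given above. The positions that follow are those of edgeR with all libraries. On the 5′ side of Gatm, 18 tested genes lay before the next called gene at 119014620 to 119052531, which rose from 767 ± 107 to 1062 ± 54.3 CPM (SD, n = 5; edgeR adjusted p = 0.00486). On the 3′ side 32 tested genes lay before the gene at 112531703 to 112560634. It fell from 0.910 ± 0.179 to 0.442 ± 0.175 CPM (SD, n = 5; edgeR adjusted p = 0.0218), and its groups overlapped. Of 1135 tested genes on chromosome 3, 58 were called higher and 48 lower. This is 9.34%, which includes Gatm, near the 8.47% of all tested genes. This stretch was described after its values were seen. In the GRCr8 annotation of RefSeq, the 3 nearest protein-coding genes on one side of Gatm are, from the nearest outwards, LOC120101644, LOC120101643 and Slc28a2, a nucleoside transporter gene. On the other side they are Afg2b, C3h15orf48 and Slc30a4, a zinc transporter gene. They could not be tied to identifiers in the count table.

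**Figure D4:**
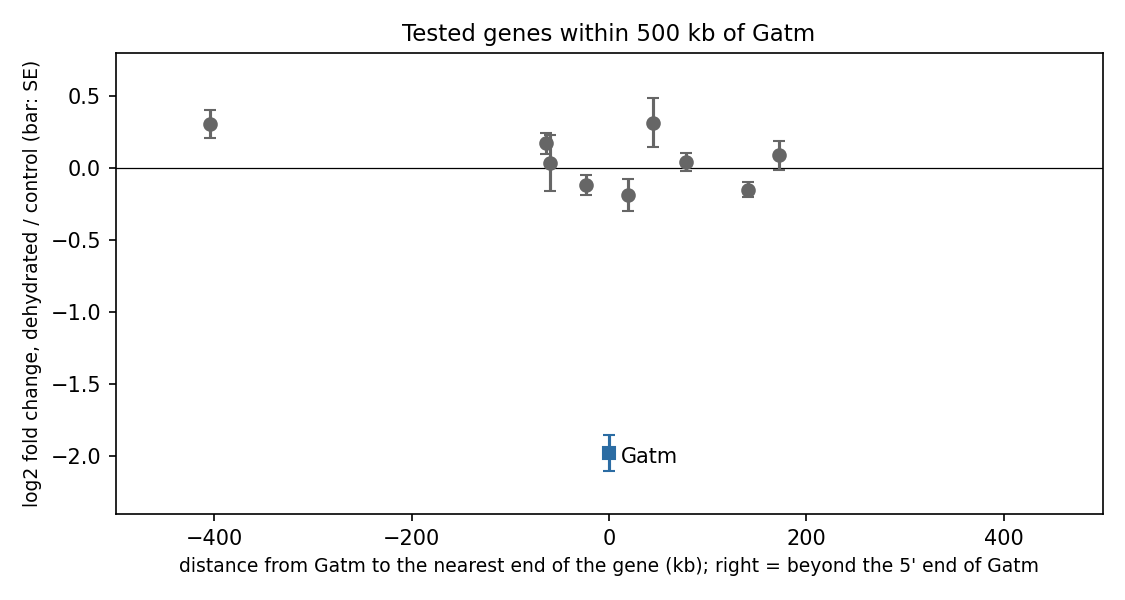
Log2 fold change of dehydrated over control, with its SE as a bar, for the 9 tested genes within 500 kb of Gatm and for Gatm, by distance in kb to the nearest end (positive beyond the 5′ end of Gatm). The neighbours lie between -0.19 and 0.32, and Gatm at -1.98.

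Which genes varied with Gatm from kidney to kidney was described after the mean of each group had been subtracted from log2 CPM. The difference between the groups thus played no part in the correlation. It did enter the choice of the genes named below, which were taken from those called lower or higher. Over 10 libraries and 9599 genes averaging 10 CPM or more, Pearson's r with Gatm ran from -0.89 to 0.95 with a median of -0.003. With 10 libraries and so many genes a high r is no finding in itself, and the values are a description without a test. The list of the 100 genes with the highest r (0.76 or more) was unstable, since 39 to 85 of them stayed when 1 library was left out and 22 without both libraries numbered 6. Of these 100 genes, 3 were called higher and 13 lower. Among all genes compared, 4.83% were called higher and 3.95% lower. Of the 100 genes with the lowest r, 15 were called higher and 2 lower. On chromosome 3 lay 7 of the 100 most similar genes, near the 7.79% of all genes compared.

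Among genes called lower, the most similar was ENSRNOG00000060665 (chromosome 14, 79919717 to 79988110, minus strand), with r = 0.94 and Spearman's rho of 0.98 over 10 libraries. Control replicates 2 to 6 had 23.8, 25.7, 26.8, 19.4 and 21.6 CPM, and dehydrated replicates 1, 2, 4, 5 and 6 had 18.4, 17.4, 16.5, 16.5 and 19.0 CPM. Its groups did not overlap, and its order of control kidneys differed from that of Gatm only between replicates 3 and 4. The log2 fold change was -0.42 (SE 0.09; adjusted p = 0.00948 in edgeR), far smaller than that of Gatm. The next was ENSRNOG00000050539 (chromosome 6, 125644804 to 125723944, minus strand), with r = 0.92 and rho of 0.94. It had 146 ± 22.7 CPM in control and 115 ± 8.29 CPM in dehydrated kidneys (SD, n = 5). Its groups overlapped, and its call (log2 fold change -0.34, edgeR adjusted p = 0.0397) was lost in 7 of the 10 fits that left out 1 library, with adjusted p up to 0.113.

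Among genes called higher, the most opposed was ENSRNOG00000009754 (chromosome 6, 52122085 to 52156472, plus strand), with r = -0.88 and rho of -0.82. It had 94.6 ± 7.10 CPM in control and 115 ± 9.04 CPM in dehydrated kidneys (SD, n = 5), without overlap (log2 fold change 0.28, SE 0.07; adjusted p = 0.019 in edgeR). The call was lost without control replicate 2 (adjusted p = 0.0502). ENSRNOG00000045743 (chromosome 2, 235738416 to 235760352, plus strand) followed, with r = -0.87 and rho of -0.89. Control replicates 2 to 6 had 245, 200, 221, 282 and 256 CPM of it, and dehydrated replicates 1, 2, 4, 5 and 6 had 375, 389, 360, 459 and 308 CPM. In both groups the kidney with the least Gatm, replicate 5, had the most of this transcript. Its log2 fold change was 0.65 (SE 0.11; adjusted p = 0.00225 in edgeR).

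**Figure D5:**
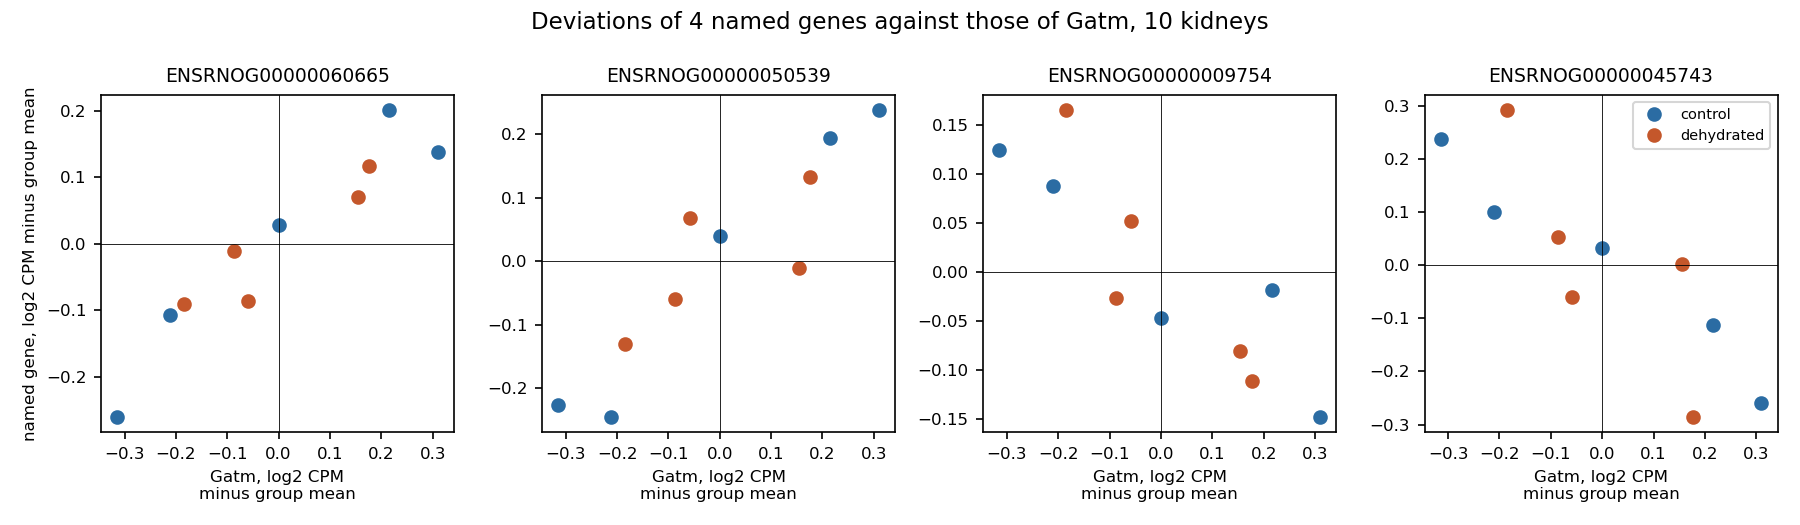
Each panel plots 1 named gene against Gatm, both as log2 CPM minus the mean of the kidney's group, with 1 point per kidney (10 kidneys, colours for control and dehydrated). The first 2 panels, with r of 0.94 and 0.92, rise and the last 2, with r of -0.88 and -0.87, fall.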

How the data were processed

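Polyadenylated RNA of 10 whole rat kidneys was compared, 5 per group by title. The authors deposited raw fragment counts for each Ensembl gene, made with featureCounts 1.6.2 (paired, strand setting 2) on trimmed, Rsubread-aligned reads with Ensembl release 103 of Rnor 6.0, per the file headers. Neither the aligner's version nor the trimming tool is given in the sources used here. The authors' deposited table gives log2 fold changes and a mean normalised signal, which the submitters' processing notes credit to DESeq2. Its 10 columns per library were not used.

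After filterByExpr (minimum count 10, minimum total 15), 15047 of 21311 genes with counts were fitted with edgeR 4.0.16 (glmQLFit, glmQLFTest, TMM, no covariate) in R 4.3.3, and called at a Benjamini-Hochberg adjusted p below 0.05. The SE is the absolute log2 fold change over the square root of F. RPKM is TMM-scaled CPM per kb of the table's exonic length. Log2 CPM used a prior count of 2. Alternatives used DESeq2 1.42.0 and limma 3.58.1. The scripts were tested on simulated data. Replicate libraries differed beyond counting noise in all 20 pairs (chi-square per degree of freedom 13.3 to 32.0). The spread between the 5 libraries of a group sets the precision, and differences between animals cannot be told apart from those of handling.

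The gene, lists, neighbours within 500 kb, likeness measure and alternatives were chosen with earlier results of these data known. Genes other than Gatm were named by rule: the 2 called lower with the highest centred r and the 2 called higher with the lowest, among genes of at least 10 CPM. The reference table (GRCr8) paired 0 identifiers with a symbol, so the 14 planned gene lists were not run. Promoter windows were read on the gene's strand.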

Additional observations from a re-analysis of the deposited data

How the results depend on the processing

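The log2 fold change of Gatm stayed between -2.08 and -1.92 with no filter on low counts, size factors from DESeq2, the DESeq2 test, limma voom, the replicate block and without both libraries numbered 6, and between -2.05 and -1.89 when 1 library was left out. It was -1.27 with the libraries numbered 6 exchanged. That exchange left 0 genes called in edgeR (0 higher, 0 lower). The count of 1275 called genes (707 higher, 568 lower) became 879 to 1382 when 1 library was left out, 485 to 763 of them higher and 378 to 619 lower (378 without control replicate 4). The DESeq2 test called 1667 genes (921 higher, 746 lower) and limma voom 1240. Without both libraries numbered 6 the edgeR count was 896, with 461 higher, in a fit with fewer libraries. A replicate block on the 8 libraries with a shared number gave 772 calls, 431 higher and 341 lower. The same libraries without the block, a setting added after the data were seen, gave 881. Gatm was at -1.92 with the block. Deviations of same-numbered libraries correlated at -0.05 to 0.14, with 1 of 4 pairs above 0.1, and no label explains the numbers. The block also ended the calls of ENSRNOG00000060665 (edgeR adjusted p = 0.0561) and ENSRNOG00000009754 (0.0612). The same libraries without the block kept both (0.0365 and 0.0465). ENSRNOG00000050539 was called in these libraries neither with the block (0.134) nor without it (0.146).

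Of the 9 tested neighbours, DESeq2 called 1, and leaving out 1 library gave 0 to 2 (2 without control replicate 5). The ranks of Gatm by RPKM were 26 to 31 in control and 257 to 283 in dehydrated kidneys with 1 library left out. The SD of its log2 CPM was then 0.24 to 0.31 in control and 0.14 to 0.18 in dehydrated kidneys. Of the 100 genes most like Gatm, 39 to 85 stayed when 1 library was left out and 22 without both libraries numbered 6. The cause was not tested. The 4 named genes kept their sign, with r of 0.88 or more or of -0.81 or less under each setting run. The gene lists were run under no setting, for want of symbols.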
